A study of Homo sapiens with 16 samples.

Results

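The genes described here are the SR proteins, the heterogeneous nuclear ribonucleoproteins (hnRNPs) and their close relatives, the main RNA-binding proteins that decide which exons are kept in a messenger RNA. They were chosen by name: every protein-coding gene whose symbol is SRSF with a number or begins with HNRNP, plus TRA2A, TRA2B, PTBP1, PTBP2 and PTBP3, without pseudogenes. Of 43 annotated genes that match, 38 were among the 28951 genes measured: 12 SR proteins, 2 TRA2 proteins, 21 hnRNP genes and 3 polypyrimidine tract binding proteins. All 38 had enough reads to be tested. HNRNPCL1 to HNRNPCL4 and the readthrough HNRNPUL2-BSCL2 were not analysed here.

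The study profiled total RNA of 4 established non-small cell lung cancer lines: H460 and H1703, which the series calls responsive, and HCC827 and H441, which it calls non-responsive. Each line was given either Combo, here the combination, or Vehicle (DMSO) for 48 hours, starting 1 day after plating in RPMI with 10% serum, and each of the 8 groups had 2 libraries. The combination was 5 µM MYCi975, which blocks the transcription factor MYC, with 25 µM TMP195, which blocks the class IIa histone deacetylases. No genetic change was made to any of the lines, as far as the labels say, and the single agents were not analysed here. The labels do not say whether both libraries of a group are separate cultures, so p-values measure the spread between these libraries, which may be technical.

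SR proteins carry RNA recognition motifs and a domain rich in arginine and serine. They bind mostly to exons and help the spliceosome recognise the neighbouring splice sites. Many hnRNPs bind silencer sequences in exons or introns and oppose that, so the balance of both groups sets the inclusion of alternative exons. Many of these genes also limit their own level by splicing in a poison exon that sends the transcript to nonsense-mediated decay. In other cells, SRSF1, PTBP1, HNRNPA1 and HNRNPA2B1 are known as genes whose transcription MYC raises. The values here are reads summed over all transcripts of a gene, so they hold no measure of splicing itself.

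The libraries held 8493271 to 13604150 reads in the listed genes, and replicate libraries correlated at 0.976 to 0.985 across genes, which are not independent replicates. Marker genes told the lines apart: EGFR had 128272 to 136029 normalised reads in HCC827 and at most 5337 elsewhere, and PDGFRA had 4696 to 11368 in H1703 and at most 1.08 elsewhere. The epithelial gene EPCAM had 2158 to 5017 normalised reads in HCC827 and H441 but at most 8.80 in H460 and H1703. CDH1 was also low in H460 and H1703 (at most 9.11). The keratin KRT8 had at most 74.1 in H1703 and KRT18 at most 195. Both were high in H460, at 17082 to 20062 and 3722 to 5308, against 13739 to 22022 and 4147 to 5189 in HCC827. Mesenchymal VIM had 7046 to 18455 in H460, 8872 to 15275 in H1703, 3250 to 3889 in HCC827 and at most 4.54 in H441. The endothelial markers PECAM1 and VWF had at most 10.1 normalised reads, and the fibroblast marker COL1A1 had 65.4 to 133 in H441 and at most 68.9 elsewhere. In bulk RNA, fewer cells of one kind and less RNA per cell cannot be told apart.

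The 38 genes together took a smaller share of all reads with the combination in each line, and the gap was widest in the responsive lines. In H460 they took 0.772 and 0.727% of all reads with the combination, against 1.21 and 1.15% with vehicle. In H1703 they took 0.621 and 0.610% with the combination, against 1.01 and 1.01% with vehicle. The gap was several times the distance between replicates in both lines. HCC827 libraries had 0.749 and 0.724% with the combination and 0.846 and 0.830% with vehicle, and H441 libraries had 0.741 and 0.742% with the combination and 0.894 and 0.876% with vehicle. In vehicle, H460 and H1703 stood above HCC827 and H441. With the combination the 8 libraries lay between 0.610 and 0.772%, below all 8 vehicle libraries.

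The share of mitochondrial reads moved along with treatment, upwards in the responsive lines and downwards in HCC827. It was 18.2 and 17.4% in H460 with the combination, against 15.7 and 14.3% with vehicle, and 17.1 and 15.4% in H1703 with the combination, against 13.5 and 12.1% with vehicle. In HCC827 it was 18.7 and 17.2% with the combination, against 21.2 and 22.6% with vehicle, and in H441 17.9 and 18.1% with the combination, against 17.3 and 17.7% with vehicle. As a share of the other reads alone, the 38 genes still took less with the combination in each line, at 0.944 and 0.880% against 1.44 and 1.34% with vehicle in H460, and at 0.750 and 0.720% against 1.17 and 1.15% with vehicle in H1703. The shares outside mitochondrial reads were 0.921 and 0.874% in HCC827 with the combination, against 1.07 and 1.07% with vehicle, and 0.902 and 0.906% in H441 with the combination, against 1.08 and 1.06% with vehicle.

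**Figure D1:**
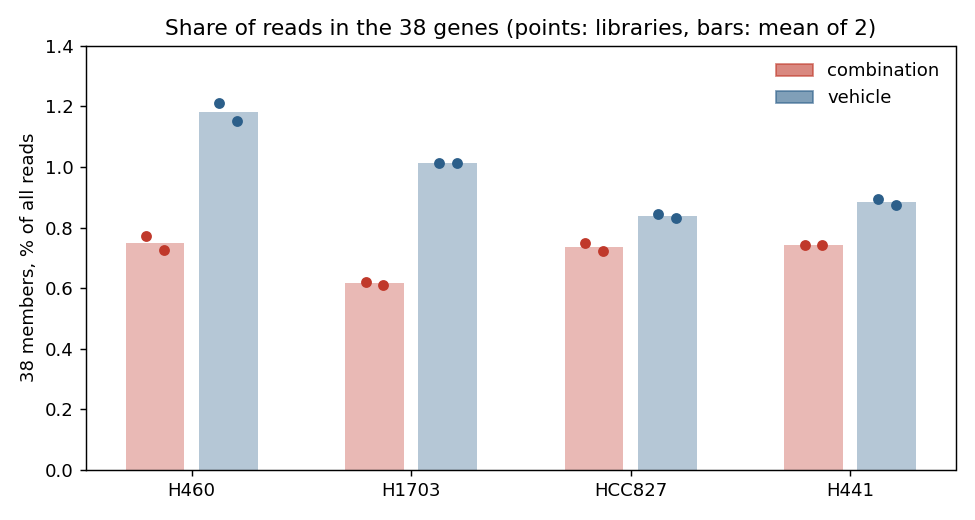
Share of all reads taken by the 38 genes, as a percentage on the vertical axis that starts at 0, for each line; points are libraries, bars the mean of 2, red the combination and blue vehicle. In each of the 4 lines both combination libraries lie below both vehicle libraries, by most in H460 (0.772 and 0.727% against 1.21 and 1.15%).

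Gene by gene, 27 of the 38 fell in H460 and none rose, against a background of 12.6% of the 23968 genes tested that fell in that line and 14.1% that rose. In H1703, 34 fell and 2 rose, PTBP2 and SRSF12, where 17.6% of all genes fell and 17.9% rose. In HCC827, 19 fell and none rose, where 5.5% of all genes fell and 4.42% rose, and in H441, 10 fell and none rose, where 1.86% fell and 2.77% rose. On the mean change of the 4 lines, 34 of the 38 fell and none rose, where 16.7% of all genes fell and 18.4% rose. Changes are the combination mean less the vehicle mean in deposited log2 units, from one limma fit, and a gene is said to rise or fall at a Benjamini-Hochberg adjusted p under 0.05 over all genes tested. The median change of the 38 was -0.49 in H460, -0.68 in H1703, -0.29 for HCC827 and -0.15 for H441, whereas the median over all genes tested was 0.05, 0.08, 0.00 and 0.00 in that order of lines. These genes are abundant, with a median of 1619 reads per library against 49.9 over all genes tested, which makes a change of a given size easier to call in them.

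Of the 38 genes, 3 changed by -1 or less in H460 (HNRNPM, SRSF1 and SRSF2), 15 in H1703 and none in HCC827 or H441. The share of all genes past that cut-off is not given here. Falls over all genes tested were also more frequent in H460 and H1703 (12.6 and 17.6%) than in HCC827 and H441 (5.5 and 1.86%). All 27 genes that fell in H460 also fell in H1703, where 34 of the 38 fell. With so many called in H1703 a large overlap was bound to occur, and the overlap over all genes is not given here. The calls in H441 were the 9 genes that fell in every line and SRSF6. The count in HCC827 lay between 10 and 22 when 1 library was left out, lowest without its second combination or its second vehicle library and 11 without its first vehicle library. The count in H441 lay between 4 and 10, at 4 without its first vehicle library and at 5 without any other of its own libraries.

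**Figure D2:**
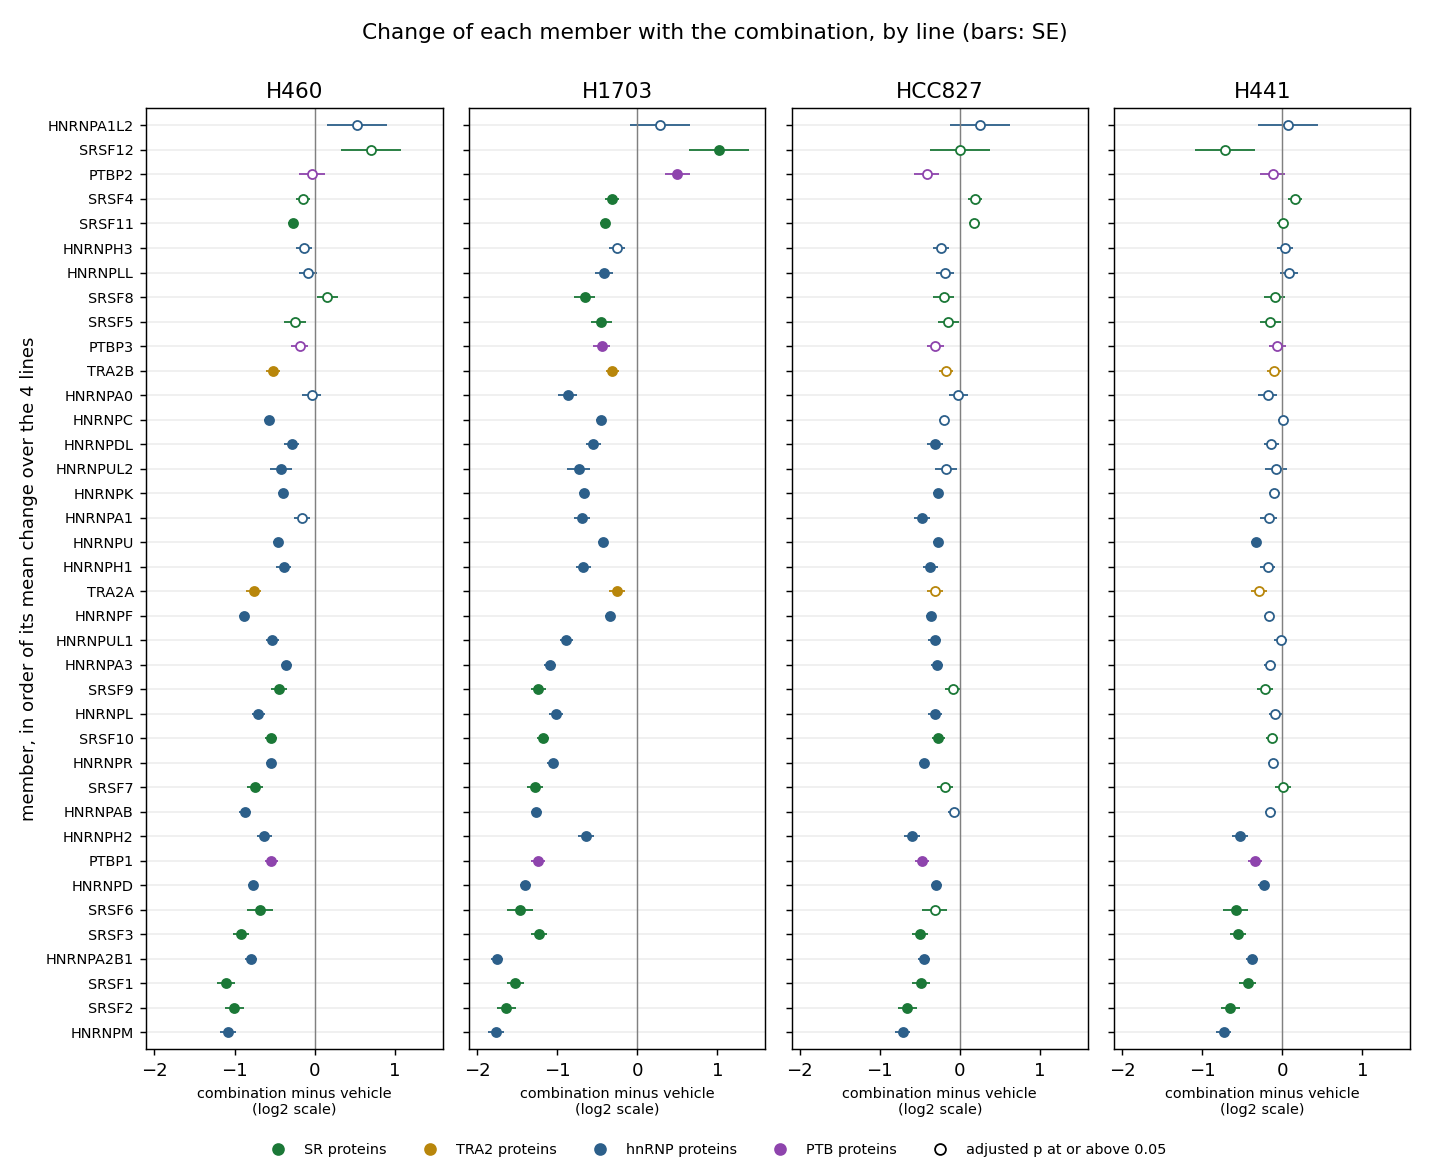
Change of each of the 38 genes with the combination (combination minus vehicle on the log2 scale, horizontal axis) in the 4 lines; genes run down in order of their mean change, bars are SE, colours mark the families and open points have an adjusted p at or above 0.05. Points lie furthest left in H1703, with HNRNPM at -1.76, and only PTBP2 and SRSF12 have filled points right of 0, both in H1703.

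A core of 9 of the 38 genes fell in all 4 lines. They were the SR proteins SRSF1, SRSF2 and SRSF3, the hnRNP genes HNRNPA2B1, HNRNPD, HNRNPH2, HNRNPM and HNRNPU, and PTBP1. Any gene that fell in all 4 lines also fell in H441, where 1.86% of all genes tested fell. The share of all genes that fell in every line was thus at most that. The core was picked by these calls, so separate libraries of its genes are no added support. HNRNPM, which binds GU-rich RNA and is known for its part in the splicing switches of the epithelial to mesenchymal transition, had the largest falls in H1703, HCC827 and H441. The gene (ENSG00000099783.12) spans chr19:8444767-8489114 on the plus strand in GENCODE 29 on GRCh38. It had 1645 and 1398 normalised reads in H460 with the combination, against 3443 and 2995 with vehicle, and 787 and 703 in H1703 with the combination, against 2616 and 2451 with vehicle. In the non-responsive lines it had 1441 and 1364 in HCC827 with the combination, against 2229.8 and 2368 with vehicle, and 1333 and 1537 in H441 with the combination, against 2444 and 2316 with vehicle. No combination library overlapped a vehicle library of its line. The changes of HNRNPM were -1.08, -1.76, -0.71 and -0.73 in H460, H1703, HCC827 and H441 (SE 0.10, limma adjusted p 3.18e-08, 2.42e-11, 5.5e-05 and 0.000119). That left 29.4% of the vehicle level in H1703 and 61.0% in HCC827.

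SRSF1 (ENSG00000136450.13, chr17:58003360-58007346, minus strand), among the first SR proteins to be described and a proto-oncogene, fell about as far in the responsive lines. It had 722 and 688 normalised reads in H460 with the combination, against 1569 and 1478 with vehicle, and 411 and 462 in H1703 with the combination, against 1152 and 1365 with vehicle. HCC827 had 859 and 674 with the combination, against 1026 and 1103 with vehicle, and H441 had 691 and 652 with the combination, against 931 and 885 with vehicle. The groups did not overlap in any line, and the gap was narrow in HCC827 and H441. The changes were -1.11, -1.52, -0.48 and -0.43 (SE 0.11, limma adjusted p 1.42e-07, 1.22e-09, 0.00659 and 0.0256 in H460, H1703, HCC827 and H441). In HCC827 the call was lost without the second combination library (-0.31, adjusted p 0.167) or the second vehicle library, and in H441 it was lost without any 1 of its 4 libraries, at an adjusted p of up to 0.173.

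SRSF2 (ENSG00000161547.16, chr17:76734115-76737374, minus strand), whose mutations are known from myeloid malignancies, also fell in each line. Its reads were 631 and 558 in H460 with the combination, against 1290.3 and 1097 with vehicle, and 265 and 271 in H1703 with the combination, against 779 and 899.6 with vehicle. The non-responsive lines had 519.9 and 408 (HCC827) and 445 and 448 (H441) with the combination, against 744 and 709.9 (HCC827) and 709 and 696 (H441) with vehicle. All 4 lines showed separate groups, with changes of -1.0007, -1.63, -0.66 and -0.65 (SE 0.12, limma adjusted p 1.2e-06, 9.77e-10, 0.000885 and 0.00206 in H460, H1703, HCC827 and H441). Exons of MFSD11 on the opposite strand overlap SRSF2, and the sources used here do not give the strand setting of the counting, so reads of the pair cannot be told apart.

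SRSF3, the smallest SR protein, which also couples splicing to export of the messenger RNA, had 1684 and 1477 normalised reads in H460 with the combination, against 3122 and 2841 with vehicle, and 926 and 1012 in H1703 with the combination, against 2235 and 2308 with vehicle. In HCC827 it had 1449 and 1185 with the combination, against 1921 and 1772 with vehicle, and in H441 1564 and 1502 with the combination, against 2421 and 2087 with vehicle. Combination libraries were lower throughout, and the changes were -0.92, -1.23, -0.49 and -0.55 in H460, H1703, HCC827 and H441 (SE 0.10, highest limma adjusted p 0.00281). Without the second combination library of HCC827 its adjusted p there was 0.0881, and the call also went without that line's first vehicle library. Without the first vehicle library of H441 it was 0.0616.

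HNRNPA2B1 (ENSG00000122566.21, chr7:26173057-26201529, minus strand), an abundant nuclear RNA-binding protein that also sorts RNA for transport, had the smallest adjusted p in the test of the 4 changes against each other. It had 9235 and 8765 normalised reads in H460 with the combination, against 16071 and 15135 with vehicle, and 3329 and 3609 in H1703 with the combination, against 11543 and 11823 with vehicle. HCC827 had 6629.8 and 5489 with the combination, against 8472 and 7958 with vehicle, and H441 had 6720.3 and 6827 with the combination, against 9080.1 and 8520.0 with vehicle. H1703 thus kept 29.7% of its vehicle level and HCC827 73.8%. The changes were -0.79, -1.75, -0.44 and -0.38 in H460, H1703, HCC827 and H441 (SE 0.07, limma adjusted p 6.57e-08, 7.58e-13, 0.000509 and 0.00448). The call in H441 was lost without its first combination or first vehicle library, at an adjusted p of up to 0.08. CBX3 has exons over those of HNRNPA2B1 on the other strand.

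HNRNPD, also known as AUF1, binds AU-rich elements in messenger RNAs and affects their stability. It had 2509 and 2633 normalised reads in H460 with the combination, against 4404 and 4375 with vehicle, and 1457 and 1431 in H1703 with the combination, against 3926 and 3688 with vehicle. In HCC827 it had 2489 and 2589 with the combination, against 3087 and 3132 with vehicle, and in H441 3236 and 3528 with the combination, against 4067 and 3880.2 with vehicle. Its changes were -0.77, -1.40, -0.29 and -0.23 in H460, H1703, HCC827 and H441 (SE 0.07). The last of these, at a limma adjusted p of 0.0462, was lost in 14 of the 16 fits without 1 library, up to 0.33 without the first combination library of H441, and the call in HCC827 was lost without its first combination library (0.0535) or its second vehicle library (0.0518).

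HNRNPH2 and HNRNPU completed the hnRNP genes of the core. HNRNPH2, a protein that binds runs of G, had 428 and 383 normalised reads in H460 with the combination, against 663 and 592 with vehicle, and 442 and 431 in H1703 with the combination, against 695 and 666 with vehicle. It had 509 and 464 in HCC827 with the combination, against 717 and 754 with vehicle, and 602 and 535 in H441 with the combination, against 797 and 846 with vehicle. The share of the vehicle level that was left was 64.6% in H460, 64.1% in H1703, 69.2% in H441 and 66.1% in HCC827. The changes were -0.63, -0.64, -0.60 and -0.53 in H460, H1703, HCC827 and H441 (SE 0.10, highest limma adjusted p 0.00299), and the F-test of the 4 changes gave an adjusted p of 0.915. The call in H441 was lost without its second combination library (-0.45, adjusted p 0.061) or its second vehicle library. Exons of the readthrough gene RPL36A-HNRNPH2 lie over those of HNRNPH2, so reads of both cannot be separated.

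HNRNPU, also called scaffold attachment factor A, binds chromatin-associated RNA and changed by -0.46, -0.43, -0.27 and -0.33 in H460, H1703, HCC827 and H441 (SE 0.06, highest limma adjusted p 0.00382, F-test adjusted p 0.23). In HCC827 that call was lost without the second combination (adjusted p 0.0618) or the second vehicle library. PTBP1, the ubiquitous polypyrimidine tract binding protein, completed the core and is described with its paralogues. Under the 16 fits that each left out 1 library, 4 to 9 genes fell in all 4 lines, and HNRNPM and SRSF2 were among them each time. The count was 1 (HNRNPM) without the trend and robust options of the fit and 0 when each line was fitted alone, where HNRNPM had an adjusted p of 0.122 in H441. Among the fits without 1 library the count was lowest without the first vehicle library of H441, and it was 5 without the second combination library of HCC827 or any other library of H441.

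**Figure D3:**
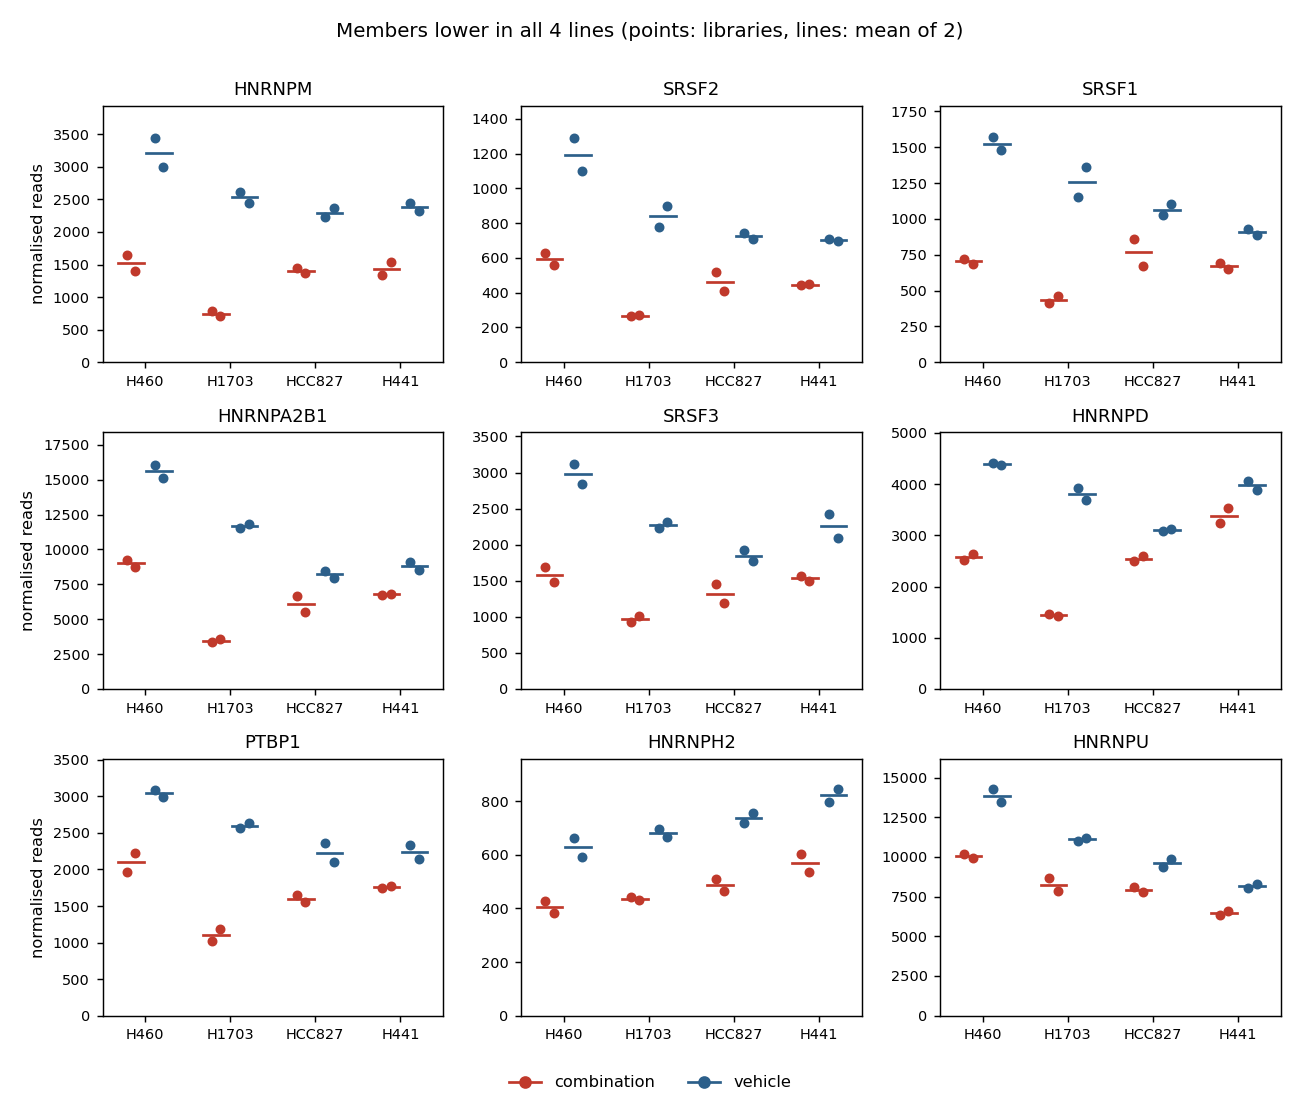
Normalised reads (vertical axes, each from 0) of the 9 genes that fell in all 4 lines, by line; points are libraries, horizontal bars the mean of 2, red the combination and blue vehicle. The red points lie below the blue ones of the same line in every panel, for HNRNPM at 787 and 703 against 2616 and 2451 in H1703. The genes were picked for falls in all 4 lines, so this separation follows largely from that choice.

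Promoters of these genes were read to see where they hold CACGTG, the E-box that MYC and its partner MAX are known to bind. RefSeq (GRCh38.p14) promoter sequences of 250 bases before to 50 bases after the start were matched by symbol for 35 of the 38 genes, with none for HNRNPA1, SRSF2 and TRA2A. CACGTG, which reads the same on both strands, stood in 7 of the 35 (20%), against 7.43% of 27305 promoters of that length. The 7 were HNRNPA3, HNRNPD, HNRNPDL, HNRNPH2, HNRNPH3, HNRNPM and HNRNPUL1. The ETS-type motif CCGGAAG, searched on both strands, was in 14.29% of the 35 and 10.67% of all promoters, and TATAAA, also on both strands, in 14.29% of the 35 and 11.95% of all. The 35 promoters were rich in G and C, with a median of 65.0% against 58.33% over all.

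The motif stood in 3 of the 8 genes that fell in every line and had a promoter sequence, and their promoters are shown with those of PTBP1 and SRSF1, which fell in every line without it. Each runs 5′ to 3′ on the gene's strand from 150 bases before the RefSeq start to the 30th base of the transcript, with CACGTG in capitals: HNRNPM at chr19:8444825-8445004 (plus strand), HNRNPD at chr4:82373962-82374141 (minus strand), HNRNPH2 at chrX:101408072-101408251 (plus strand), PTBP1 at chr19:797302-797481 (plus strand) and SRSF1 at chr17:58007217-58007396 (minus strand).
HNRNPM: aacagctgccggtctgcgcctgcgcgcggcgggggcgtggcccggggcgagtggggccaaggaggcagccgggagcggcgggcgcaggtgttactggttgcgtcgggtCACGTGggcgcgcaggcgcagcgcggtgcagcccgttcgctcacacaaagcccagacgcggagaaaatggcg
HNRNPD: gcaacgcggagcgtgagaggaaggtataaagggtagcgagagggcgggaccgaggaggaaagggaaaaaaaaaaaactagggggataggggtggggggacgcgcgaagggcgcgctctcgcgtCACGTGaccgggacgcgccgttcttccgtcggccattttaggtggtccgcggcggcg
HNRNPH2: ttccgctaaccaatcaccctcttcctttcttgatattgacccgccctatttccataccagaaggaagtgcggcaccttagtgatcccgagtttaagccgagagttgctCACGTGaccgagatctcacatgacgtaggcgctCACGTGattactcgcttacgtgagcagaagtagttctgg
PTBP1: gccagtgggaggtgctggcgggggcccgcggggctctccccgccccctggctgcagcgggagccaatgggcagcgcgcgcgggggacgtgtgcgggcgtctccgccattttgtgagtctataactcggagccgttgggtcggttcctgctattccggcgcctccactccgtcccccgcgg
SRSF1: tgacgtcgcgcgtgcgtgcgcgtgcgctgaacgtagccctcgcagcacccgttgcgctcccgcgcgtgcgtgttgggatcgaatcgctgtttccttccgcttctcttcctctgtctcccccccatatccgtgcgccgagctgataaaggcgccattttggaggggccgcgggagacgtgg
HNRNPM and HNRNPD have 1 copy and HNRNPH2 has 2. A match describes these letters and is not a binding site. Among the genes with the motif, HNRNPM had the largest fall in H1703, and HNRNPH3 stood at -0.25 there (limma adjusted p 0.0576, and -0.49 with 0.00168 when libraries were centred).

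Among the 12 SR proteins, 8 fell in H460 and 11 in H1703, where 12.6 and 17.6% of all genes fell, and 4 each in HCC827 and H441, where 5.5 and 1.86% fell. Their median change was -0.49, -1.20, -0.20 and -0.18 in that order of lines. SRSF1, SRSF2 and SRSF3 are described with the core. SRSF6, which regulates the alternative exons of tau and other genes, had 592 and 583 normalised reads in H1703 with the combination, against 1593 and 1667 with vehicle. In H460 it had 2158 and 1395 with the combination, against 3190.0 and 2423 with vehicle, so its replicates were far apart. In HCC827 it had 1545 and 1288 with the combination, against 1818 and 1695 with vehicle, and in H441 1097 and 979 with the combination, against 1572 and 1539.7 with vehicle. The changes were -0.68, -1.47, -0.31 and -0.58 in H460, H1703, HCC827 and H441 (SE 0.16, limma adjusted p 0.00433, 2.12e-06, 0.27 and 0.0499). In H460 the call went without the second combination (adjusted p 0.0535) or the first vehicle library (0.0553), and in H441 it went in 10 of 16 fits without 1 library, up to 0.244.

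The other members of the group split by line. SRSF7, a zinc knuckle protein close to SRSF3, changed by -0.74 in H460 and -1.27 in H1703 and stood at -0.19 in HCC827 and 0.01 in H441 (adjusted p 0.28 and 1). SRSF9, the closest relative of SRSF1, changed by -0.44 in H460 and -1.24 in H1703 and stood at -0.09 in HCC827 and -0.21 in H441. Exons of GATC on the opposite strand overlap SRSF9. SRSF10, which acts as a repressor when it is dephosphorylated, changed by -0.54, -1.18 and -0.27 in H460, H1703 and HCC827, and the last of these calls was lost in 6 of 16 fits without 1 library (adjusted p up to 0.231 without the second combination library of HCC827). SRSF11 changed by -0.27 in H460 and -0.41 in H1703. In HCC827 both its combination libraries were above both vehicle libraries, at 4283 and 4529 against 3776 and 3993. That change of 0.18 did not pass on the deposited scale (limma adjusted p 0.0868) but did under quantile normalisation (0.26, adjusted p 0.0119).

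SRSF4, SRSF5 and SRSF8 passed in H1703 alone on the deposited scale. When libraries were centred, SRSF4 (adjusted p 0.0143) and SRSF5 (0.0198) passed in H460 too, and under quantile normalisation neither passed in H1703 (0.328 and 0.153). SRSF5, first found as an insulin-induced gene in rat liver cells, had 612 and 634 normalised reads there with the combination, against 882 and 818 with vehicle (-0.45, SE 0.13, limma adjusted p 0.0129). In H460 its libraries overlapped, at 1114 and 761 with the combination, against 1258 and 951 with vehicle. HCC827 had 996 and 976 with the combination, against 1087 and 1093 with vehicle, and H441 had 1144 and 1116 with the combination, against 1216 and 1292 with vehicle, with changes of -0.14 and -0.15 that did not pass. The H1703 call for SRSF5 was lost without its first combination (adjusted p 0.0793) or first vehicle library (0.101). SRSF4 changed by -0.31 in H1703 (adjusted p 0.00783, and 0.165 without the first vehicle library) and SRSF8 by -0.66 (0.000404). In HCC827 and H441 SRSF4 stood above 0, at 0.19 and 0.15, and neither value passed (limma adjusted p 0.206 and 0.409).

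SRSF12 was the only SR protein with a called rise on the deposited scale. It is a little studied splicing repressor, and it had 87.1 and 102 normalised reads in H1703 with the combination, against 42.9 and 47.6 with vehicle, a change of 1.02 (SE 0.37, limma adjusted p 0.0393). HCC827 had the highest level of the gene and the groups overlapped, at 161 and 129 with the combination, against 161 and 129 with vehicle. H460 had 14 and 10 reads with the combination, against 10 and 6 with vehicle, and H441 had 1 and 1 reads with the combination, against 1 and 5 with vehicle, too few to read a change from. The call in H1703 was lost in 7 of 16 fits without 1 library, up to an adjusted p of 0.179 without its second combination library. It was also lost when libraries were centred on their medians (0.78, adjusted p 0.121) and with quantile normalisation (0.88, adjusted p 0.0788).

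Of the 21 hnRNP genes, 16 fell in H460 and 19 in H1703, where 12.6 and 17.6% of all genes fell. For HCC827 and H441 the falls numbered 14 and 5, beside 5.5 and 1.86% of all genes. Their median change was -0.46, -0.69, -0.29 and -0.15. In the A/B group, HNRNPA1, which binds UAGGG-like silencers and opposes SRSF1 at splice sites, fell in H1703 and HCC827 only. It had 2407 and 1805 normalised reads in H1703 with the combination, against 3426 and 3303 with vehicle, and 3763 and 3467 in HCC827 with the combination, against 4806 and 5214 with vehicle. In H460 the groups overlapped, at 5079 and 6024 with the combination, against 6373 and 5977 with vehicle. H441 had 3869 and 4038 with the combination, against 4345 and 4567 with vehicle, a gap of -0.17 that did not pass (limma adjusted p 0.423). Its change was smaller than that of HNRNPA2B1, a close relative, in H460 and H1703: -0.16 in H460, -0.69 in H1703 and -0.47 in HCC827 (SE 0.10). When libraries were centred HNRNPA1 also passed in H460 (-0.35, adjusted p 0.0228), and the call in HCC827 was lost without its second combination library (adjusted p 0.0814) or its second vehicle library. HNRNPA1 has many processed pseudogenes, whose rows held 4.61 to 8.11% as many reads as HNRNPA1 itself, and how the counting treated reads that match both was not tested, so its level is uncertain.

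HNRNPA3 changed by -0.35 in H460, -1.09 in H1703 and -0.28 in HCC827, and HNRNPA0 passed in H1703 alone, where it changed by -0.87. HNRNPA1L2, a copy of HNRNPA1 without introns, had 13 to 39 reads per library and overlapped in every line. HNRNPAB, a protein close to HNRNPD, showed the sharpest contrast between the responsive and the other lines. It had 1742 and 1563 normalised reads in H460 with the combination, against 3111 and 2939.5 with vehicle, and 944 and 937 in H1703 with the combination, against 2282 and 2229 with vehicle. In HCC827 it had 1085 and 1081 with the combination, against 1180.4 and 1106 with vehicle, and in H441 1894 and 1975 with the combination, against 2173 and 2117 with vehicle. The changes were -0.87 and -1.26 in H460 and H1703 and -0.08 and -0.15 in HCC827 and H441 (SE 0.07, limma adjusted p 0.61 and 0.309 in the last pair). PHYKPL has exons over those of HNRNPAB on the other strand.

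HNRNPC and HNRNPF fell in both responsive lines, with the more negative value in H460, a difference between the lines that was not tested. HNRNPC, which binds runs of U and keeps Alu-derived sequences out of exons, had 8675 and 8811 normalised reads in H460 with the combination, against 13255 and 12737 with vehicle, and 5385 and 5179.8 in H1703 with the combination, against 7458 and 7054 with vehicle. It had 7677 and 7820.5 in HCC827 with the combination, against 9530.1 and 8217 with vehicle. In H441 the groups overlapped, at 8354 and 8667 with the combination, against 8313 and 8574 with vehicle. The changes were -0.57, -0.46, -0.19 and 0.01 in H460, H1703, HCC827 and H441 (SE 0.06, limma adjusted p 6.75e-07, 7.78e-06, 0.0612 and 1).

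HNRNPF, which binds runs of G like HNRNPH1 and HNRNPH2, had 3824 and 4314 normalised reads in H460 with the combination, against 7596 and 7366 with vehicle, and 5301 and 5222 in H1703 with the combination, against 6820.3 and 6537 with vehicle. HCC827 had 3029 and 3184 with the combination, against 4039 and 3906 with vehicle, and H441 had 4318 and 4437 with the combination, against 4988 and 4843 with vehicle. The change was -0.88 in H460, -0.34 in H1703, -0.35 for HCC827 and -0.17 for H441 (SE 0.06, limma adjusted p 1.95e-09, 0.000214, 0.000988 and 0.153 in the 4 lines). With quantile normalisation neither HNRNPC (-0.14, adjusted p 0.0808) nor HNRNPF (-0.03, adjusted p 0.761) passed in H1703. HNRNPH1 changed by -0.39, -0.67 and -0.37 in H460, H1703 and HCC827, and HNRNPH3 did not pass in any line on the deposited scale, though it did in H460 (adjusted p 0.04) and H1703 (0.00168) when libraries were centred.

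HNRNPK, a KH-domain protein that binds runs of C in DNA and RNA, had 7026 and 7718 normalised reads in H460 with the combination, against 9899.5 and 9429 with vehicle, and 5036 and 4671 in H1703 with the combination, against 8089 and 7332 with vehicle. It had 6812 and 6715 in HCC827 with the combination, against 8472 and 7908 with vehicle, and 7341 and 7265 in H441 with the combination, against 7940.4 and 7701 with vehicle. The libraries did not overlap in any line, but the change in H441, -0.10, did not pass (limma adjusted p 0.487), while those in H460, H1703 and HCC827 were -0.39, -0.67 and -0.28. The HCC827 call was lost without that line's second combination library (adjusted p 0.0767) or its first vehicle library (0.122), and under quantile normalisation (0.105).

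HNRNPR, a relative of SYNCRIP, had 2575 and 2698 normalised reads in H460 with the combination, against 3882 and 3801 with vehicle, and 1392 and 1376 in H1703 with the combination, against 2866 and 2889 with vehicle. In HCC827 it had 2266 and 2109 with the combination, against 3056 and 2900.2 with vehicle, and in H441 3737 and 3820.1 with the combination, against 4266 and 3944 with vehicle. HNRNPR changed by -1.05 in H1703, -0.54 in H460 and -0.45 in HCC827, with a value of -0.12 in H441 that did not pass (SE 0.07, limma adjusted p 0.386). HNRNPL, which binds CA repeats, changed by -0.70, -1.02 and -0.31 in H460, H1703 and HCC827, and its paralogue HNRNPLL passed only in H1703, where it changed by -0.41. HNRNPDL, HNRNPUL1 and HNRNPUL2 changed by -0.29, -0.53 and -0.42 in H460 and by -0.55, -0.89 and -0.73 in H1703. Of the hnRNP calls in HCC827, those of HNRNPA3, HNRNPDL, HNRNPH1, HNRNPL and HNRNPUL1 were each lost without 3 or more single libraries, at adjusted p values of up to 0.386. In H460, HNRNPDL, HNRNPH1 and HNRNPUL2 each lost their call without 1 or more of that line's libraries, with the highest adjusted p, 0.387, for HNRNPUL2 without the first combination library, and in H1703 HNRNPLL lost its call without the first combination library (0.07).

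The 3 polypyrimidine tract binding proteins went different ways in H1703 only, and all had changes below 0 in H460, HCC827 and H441. PTBP1 represses exons next to pyrimidine-rich tracts, among them an exon of its neuronal paralogue PTBP2 whose loss sends the PTBP2 transcript to decay. PTBP1 (ENSG00000011304.20, chr19:797075-812327, plus strand) had 1965 and 2226 normalised reads in H460 with the combination, against 3086 and 2993 with vehicle, and 1023 and 1188 in H1703 with the combination, against 2563 and 2638 with vehicle. In HCC827 it had 1652 and 1549 with the combination, against 2362 and 2099 with vehicle, and in H441 1744 and 1778 with the combination, against 2337 and 2143 with vehicle. The changes were -0.54, -1.24, -0.48 and -0.35 in H460, H1703, HCC827 and H441 (SE 0.09, limma adjusted p 6.77e-05, 8.01e-10, 0.00111 and 0.0244). The call in H441 was lost without any 1 of its 4 libraries, up to an adjusted p of 0.221, and when libraries were centred (0.0684).

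PTBP2 (ENSG00000117569.18, chr1:96721665-96823738, plus strand) was far less abundant and rose in H1703. It had 162 and 135 normalised reads there with the combination, against 96.4 and 111 with vehicle (0.50, SE 0.16, limma adjusted p 0.0173). In H460 and H441 the groups overlapped, at 141 and 124 (H460) and 135 and 145 (H441) with the combination, against 133 and 138 (H460) and 171 and 136 (H441) with vehicle. HCC827 had 208 and 212 with the combination, against 256 and 309 with vehicle, a change of -0.41 that did not pass (adjusted p 0.112). The rise in H1703 was lost without its first combination library (0.37, adjusted p 0.177) or its first vehicle library (0.40, adjusted p 0.145), and with each library centred (0.26, adjusted p 0.236). PTBP1 fell in all 4 lines and PTBP2 rose in H1703 only, and a link between both genes was not tested.

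PTBP3, the paralogue known from blood cells, passed in H1703 alone, at 1571 and 1819.6 normalised reads with the combination, against 2145 and 2463 with vehicle (-0.44, SE 0.11, limma adjusted p 0.00286). That call was lost without the first combination (adjusted p 0.065) or the second vehicle library (0.0633) of H1703. HCC827 had 2834 and 2462 with the combination, against 3425 and 3123 with vehicle (-0.31, adjusted p 0.0798). The groups overlapped in H460, at 1483 and 1917 with the combination, against 1916 and 1918 with vehicle, and in H441, at 3672 and 3512 with the combination, against 3957 and 3547 with vehicle.

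TRA2A and TRA2B, the relatives of the fly Transformer-2 that bind GAA-rich exonic enhancers, fell in H460 and H1703. For TRA2A the change in H1703 was less negative than those in HCC827 and H441. Its difference between responsive and non-responsive lines did not pass (-0.21, limma interaction adjusted p 0.138). TRA2A had 480.2 and 480.1 normalised reads in H460 with the combination, against 899 and 742 with vehicle, and 695 and 626 in H1703 with the combination, against 766 and 811 with vehicle. It had 525 and 505 in HCC827 with the combination, against 636 and 639 with vehicle, and 369 and 370.4 in H441 with the combination, against 454 and 451 with vehicle. No groups overlapped, and the changes were -0.76, -0.26, -0.31 and -0.29 in H460, H1703, HCC827 and H441 (SE 0.10, limma adjusted p 4.81e-06, 0.0486, 0.053 and 0.102). The H1703 call lay at the threshold and was lost in 11 of 16 fits without 1 library, up to an adjusted p of 0.283.

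TRA2B had 1498 and 1609 normalised reads in H460 with the combination, against 2347 and 2107 with vehicle, and 1373 and 1265 in H1703 with the combination, against 1551 and 1727 with vehicle. HCC827 had 1579.8 and 1389 with the combination, against 1671 and 1668 with vehicle, and H441 had 2175 and 2112 with the combination, against 2332 and 2281 with vehicle. Its changes of -0.52 in H460 and -0.31 in H1703 passed (SE 0.08, limma adjusted p 7.27e-05 and 0.00572), and those of -0.17 and -0.11 in HCC827 and H441 did not. The H1703 call was lost without the second combination (adjusted p 0.0696) or the second vehicle library (0.0983), and with quantile normalisation (-0.08, adjusted p 0.473).

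**Figure D4:**
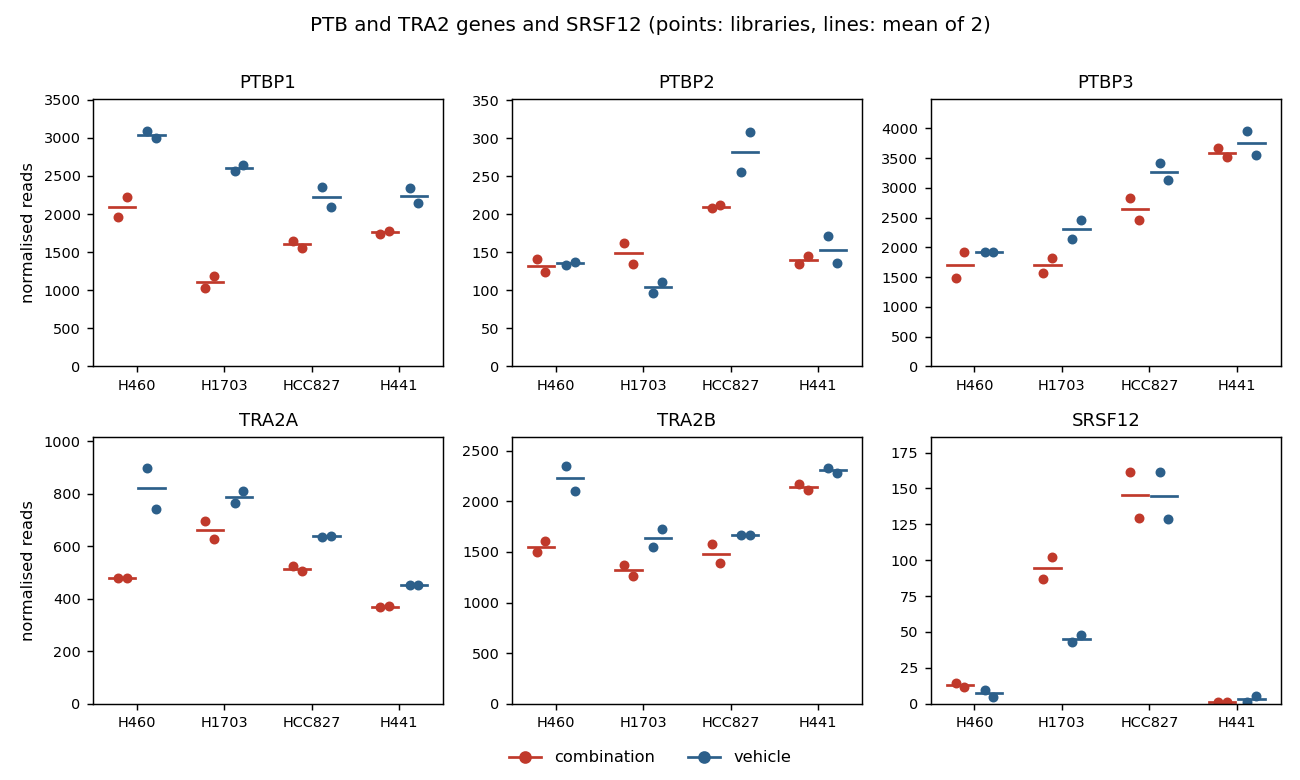
Normalised reads (vertical axes, each from 0) of the polypyrimidine tract binding proteins, the TRA2 proteins and SRSF12 by line; points are libraries, horizontal bars the mean of 2, red the combination and blue vehicle. PTBP2 and SRSF12 have their red points above the blue ones in H1703 (162 and 135 against 96.4 and 111 for PTBP2). PTBP1 has its red points below the blue ones in each line (1023 and 1188 against 2563 and 2638 in H1703).

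The change with the combination differed between the responsive and the non-responsive lines in 26 of the 38 genes, by the interaction term of the same fit, which called 23.3% of all genes. On the mean of the class, it was more negative in the responsive lines in 24, where 12.1% of all genes tested were. It was more positive in 2, PTBP2 and SRSF12, where 11.2% of all genes were. HNRNPA0 and HNRNPF, among the 24, were not more negative in both responsive lines than in either other line. HNRNPA0 stood at -0.04 in H460 against -0.18 in H441, and HNRNPF at -0.34 in H1703 against -0.35 in HCC827. Others were only a little more negative in H460 than in a non-responsive line, such as PTBP1 (-0.54 against -0.48 in HCC827). The median difference over the 38 genes was -0.41, against 0.07 over all genes. The smallest adjusted p values were those of HNRNPAB (-0.95, SE 0.07, limma adjusted p 1.25e-08), HNRNPD (-0.82, 2.01e-08) and HNRNPA2B1 (-0.86, 4.91e-08). HNRNPH2 (-0.07, adjusted p 0.688), HNRNPU (-0.14, adjusted p 0.0879) and HNRNPA1 (-0.10, adjusted p 0.535) showed no difference that passed. Of the 26 calls, 5 (HNRNPA0, HNRNPUL2, PTBP2, SRSF12 and TRA2B) were lost in at least 1 fit without 1 library, at an adjusted p of up to 0.104, for HNRNPA0 without the first vehicle library of H460. Under centring and under quantile normalisation none of the 38 was more positive in the responsive lines, and 32 and 21 were more negative. Centring also moved the median difference over all genes to -0.14. Of all genes called, 23.9% were then more positive, against 48.0% as deposited. With quantile normalisation that median was -0.004 and that share 46.6%. The share of all genes called under these scalings is not given here.

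Whatever the class, the 4 changes differed from each other in 28 of the 38 genes by the F-test, against 31.8% of all genes. HNRNPA2B1, HNRNPD, HNRNPAB and HNRNPR had the smallest adjusted p values, from 1.48e-08 to 1.96e-06. In each of these 4 H1703 had the largest fall. TRA2A (0.0185) and HNRNPF (2.08e-05) also differed, with H460 as the line of the largest fall. The 2 lines of a class are single lines, and a property of the class cannot be told apart from properties of those lines.

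In vehicle the levels of these genes were set by the line as well. The vehicle level differed among the 4 lines in 37 of the 38 genes by the F-test, all but HNRNPA1L2, where 73.4% of all genes tested differed. Per kilobase of exon, the mean vehicle level of the lines was highest for HNRNPF at 1771 normalised reads per kilobase, then HNRNPK at 1632, HNRNPC at 1285, HNRNPA2B1 at 1195, HNRNPAB at 999 and HNRNPA1 at 933. The lowest were HNRNPA1L2 at 14.7, PTBP2 at 13.0 and SRSF12 at 11.03. The length used joins the exons of all annotated transcripts of a gene, 22512 bases for HNRNPU and 3253 for HNRNPF. The order between genes thus depends on the annotation and is not an order of transcript abundance. H460 had the highest level in 22 of the 38 genes, H441 and HCC827 in 7 each and H1703 in 2.

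The vehicle levels with the smallest adjusted p were those of HNRNPAB, HNRNPF, SRSF12 and HNRNPA2B1. HNRNPAB had 1411 ± 56.5 normalised reads per kilobase in H460, 1052 ± 17.6 in H1703, 1001 ± 18.6 in H441 and 533 ± 24.6 in HCC827 (SD, n = 2 libraries, limma F-test adjusted p 8.68e-12). H1703 and H441 were near each other and H460 and HCC827 stood apart on either side. HNRNPF had 2299.7 ± 50.02 in H460, 2053 ± 61.5 in H1703, 1511 ± 31.7 in H441 and 1221 ± 28.98 in HCC827 on that scale (SD, n = 2, adjusted p 2.1e-10), so each neighbouring pair of lines lay further apart than its SDs. HNRNPA2B1 had 1684 ± 71.4, 1261 ± 21.4, 949.6 ± 42.7 and 887 ± 39.2 in the same order of lines (SD, n = 2, adjusted p 1.7e-09), and HCC827 and H441 did not differ beyond their spread. SRSF12 had 1.59 ± 0.787, 9.95 ± 0.745, 0.718 ± 0.672 and 31.9 ± 5.06 in that order (SD, n = 2, adjusted p 1.14e-09), and H460 and H441, with 1 to 10 reads a library, could not be ordered. PTBP2 also stood highest in HCC827, at 21.8 ± 2.91 against 8.03 ± 0.819 in H1703.

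**Figure D5:**
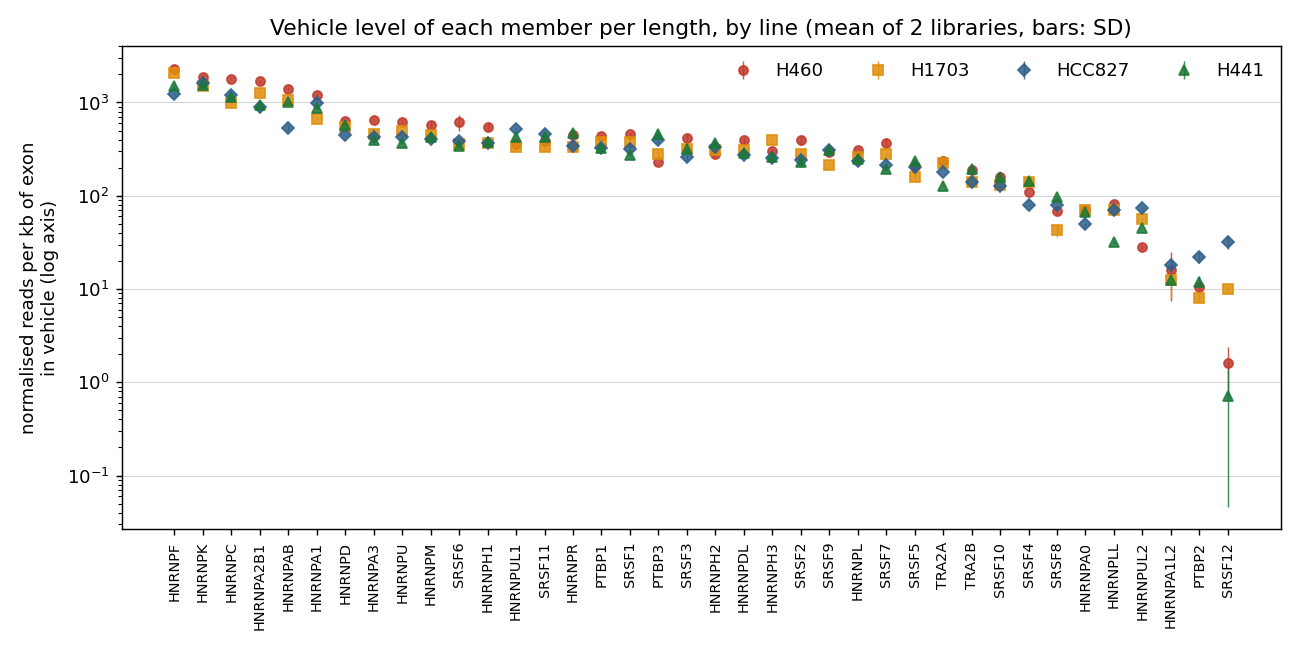
Vehicle level of each of the 38 genes in normalised reads per kilobase of exon on a log axis, in order of the mean over the 4 lines; points are the mean of 2 libraries of each line and bars the SD. Levels run from HNRNPF, at 1221 in HCC827 to 2299.7 in H460, down to SRSF12, at 0.718 in H441 to 31.9 in HCC827.

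Genes that act with these proteins were taken as 6 lists outside the naming rule. Of 50 core proteins of the spliceosome, 39 fell and 1 rose in H460, 33 fell and 2 rose in H1703, 10 fell and 1 rose in HCC827, and 3 fell and none rose in H441. Over all genes tested, 12.6, 17.6, 5.5 and 1.86% fell and 14.1, 17.9, 4.42 and 2.77% rose in these lines. The median change of the 50 was -0.58, -0.63, -0.17 and -0.13 in the 4 lines. The largest mean changes over the 4 lines were those of the Sm proteins SNRPD3 (-0.98, SE 0.07, limma adjusted p 1.07e-09) and SNRPG (-0.82, SE 0.06) and of LSM3 (-0.67, SE 0.05). Against the same shares of all genes, of 40 other splicing regulators tested, 19 fell and 4 rose in H460, 22 fell and 5 rose in H1703, 8 fell in HCC827 and 3 in H441. On the mean of the 4 lines, KHSRP, which promotes decay of AU-rich RNAs, changed by -0.66 (SE 0.04) and PCBP3 by 0.68 (SE 0.24, limma adjusted p 0.0354). RALYL, RBFOX1, KHDRBS2 and SRRM4 were left out of the tests for low values.

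The kinases that phosphorylate SR proteins and the genes for their nuclear import moved both ways. Among 10 genes for these kinases and for nuclear import of SR proteins, 1 rose and 3 fell in H460, 5 rose and 2 fell in H1703, and 1 fell in HCC827 and 1 in H441. With 14.1% of all genes rising in H460 and 17.6% falling in H1703, the single rise in H460 and the 2 falls in H1703 are near the background. CLK1, which phosphorylates SR proteins in the nucleus, rose by 0.98 in H460 and by 0.70 in H1703 (SE 0.13, limma adjusted p 9.09e-06 and 0.000286) and did not pass in HCC827 or H441 (0.02 and -0.21), and the difference of classes was 0.93 (adjusted p 2.49e-05). PRPF4B fell in all 4 lines, with a mean change of -0.43 (SE 0.04), and SRPK3 had a mean change of 0.50 (SE 0.19, adjusted p 0.0488) with no line that passed. When libraries were centred, 2 of these 10 rose and 4 fell in H1703, so the excess of rises there depends on the scaling.

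The 27 SR-related proteins outside the naming rule were divided. In H460, 3 rose and 12 fell, in H1703, 13 rose and 9 fell, and in HCC827, 2 fell. The 3 rises in H460 and 2 falls in HCC827 are near the background of 14.1 and 5.5% of all genes. CCNL2, a cyclin found in nuclear speckles, rose in both responsive lines (1.06 in H460 and 1.02 in H1703), while THRAP3 and BCLAF1, a pair of related proteins, had mean changes of -0.46 and -0.40 over the 4 lines (SE 0.04 and 0.03). The 13 rises in H1703 became 3 when libraries were centred and 15 with quantile normalisation. In that line, where 17.9% of all genes rose and 17.6% fell, 5 of 15 genes of nonsense-mediated decay and the exon junction complex rose and 5 fell, against 1 and 6 when libraries were centred. In H460, where 12.6% of all genes fell, 6 of the 15 fell, and EIF4A3, RBM8A and UPF1 had mean changes of -0.59, -0.34 and -0.28. Of 8 genes for arginine methylation of splicing proteins, 3 fell in H460 and 6 fell and 2 rose in H1703, with mean changes of 0.23 for PRMT3 and -0.18 for CLNS1A.

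The annotation shows what these gene totals could hold. Of the 38 genes, 28 (73.7%) have an annotated transcript of the nonsense-mediated decay type, against 41.1% of 14656 protein-coding genes tested, and 26 (68.4%) have one with a retained intron, against 55.0%. Reads of such transcripts are summed with those of the coding ones, so a fall in the total was not divided between them. Exons of another gene lie over those of 18 of the 38 genes, on the opposite strand in 12 of them. The 72 pseudogenes of these families with reads held only 0.438 to 0.627% of the reads of the genes and pseudogenes together.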

How the data were processed

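RNA was measured in 16 libraries, 2 for each of 8 groups (4 lines, Combo or Vehicle), prepared with a SMARTer stranded total RNA kit, per the labels' protocols. The submitters' processing notes name Trimmomatic, STAR, featureCounts and the build hg38 (GRCh38), with no versions. The deposited values are on a log2 scale: the authors' variance-stabilised counts after division by a size factor. After inversion, 100% of values were whole reads to within 0.02, and normalised reads here are those reads divided by the size factors (0.825 to 1.43). The depth was 8493271 to 13604150 reads per library, so members with few reads have wide counting errors.

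Genes with a mean at least 1 above the lowest value, 0.480538, were tested (23968 of 28951). One limma fit (limma 3.58.1 under R 4.3.3, with the trend and robust options of its empirical Bayes step) of 8 group means gave each line's change, their mean, the responsive minus non-responsive difference and F-tests of the 4 changes and of the 4 vehicle levels. P-values were Benjamini-Hochberg adjusted over all genes tested, with 0.05 as the threshold. The pipeline was tested on simulated data. Python 3.11.15 with matplotlib 3.10.9, pandas 2.3.3 and numpy 2.4.6 made the tables and plots.

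Symbols, types and positions are those of GENCODE 29, in which 28846 gene IDs were found. HNRNPA1P48, a pseudogene by symbol, was left out. The members and lists were chosen with earlier results of these data known. Values in every library are given for the 3 largest called rises and falls of each line, the 4 smallest adjusted p of each F-test and 13 genes named for their roles, 21 in all; SRSF4, SRSF7 to SRSF11, HNRNPU and other members are given by their changes, and the library values of SRSF11 in HCC827 were added after they were seen. Related genes are up to 3 per list with the largest mean change among those called; a few genes that these rules pick are not reported here. Alternatives were centring, quantile normalisation, no filter, a filter of 3, voom on recovered reads, no trend or robust settings, a replicate block, each line alone, and 16 fits without 1 library.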

Additional observations from a re-analysis of the deposited data

Results flagged for a closer look

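For 16 of the genes described by library, the change with the combination differed between the responsive and the non-responsive lines by a test of the difference itself, the interaction term of the limma fit, adjusted over all genes tested. The differences are the mean change of H460 and H1703 less that of HCC827 and H441, on the log2 scale. The most negative were those of HNRNPAB (-0.95, adjusted p 1.25e-08), HNRNPA2B1 (-0.86, adjusted p 4.91e-08), SRSF1 (-0.86, adjusted p 7.17e-06), HNRNPD (-0.82, adjusted p 2.01e-08) and HNRNPM (-0.70, adjusted p 1.52e-05), whose changes were more negative in both responsive lines than in either of the others. SRSF2 (-0.66, adjusted p 0.000223), SRSF6 (-0.62, adjusted p 0.00935), SRSF3 (-0.55, adjusted p 0.000323), HNRNPR (-0.52, adjusted p 6.91e-06) and PTBP1 (-0.48, adjusted p 0.000333) came next. In H460, PTBP1 and HNRNPR both changed by -0.54, near their values in HCC827 (-0.48 and -0.45). SRSF6 changed by -0.68 in H460 and -0.58 in H441. The differences of PTBP1, HNRNPR and SRSF6 rest mostly on H1703 (-1.24, -1.05 and -1.47). Smaller differences were those of HNRNPC (-0.42, adjusted p 4.23e-05), HNRNPF (-0.35, adjusted p 0.000328), HNRNPK (-0.34, adjusted p 0.000499) and TRA2B (-0.28, adjusted p 0.0199). HNRNPK changed by -0.39 in H460 and -0.28 in HCC827, against -0.67 in H1703.

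PTBP2 (0.50, adjusted p 0.0256) and SRSF12 (1.22, adjusted p 0.022) differed in the other direction. PTBP2 changed by -0.03 in H460 and -0.12 in H441, against 0.50 in H1703. The SRSF12 value rests in part on H441 libraries of 1 to 5 reads, and it was 0.90 (adjusted p 0.0621) without the second vehicle library of H441. PTBP2 stood at 0.43 (adjusted p 0.0785) without the second vehicle library of HCC827, and TRA2B at -0.24 (adjusted p 0.0658) without the second vehicle library of H1703. The SRSF6 difference was lost under quantile normalisation (adjusted p 0.054), voom (0.0726) and without the trend and robust options (0.0609), and that of TRA2B under quantile normalisation (0.148) and without those options (0.121). PTBP2 (0.213) and SRSF12 (0.0557) lost theirs when libraries were centred and under quantile normalisation (0.0517 and 0.0565), and PTBP2 also without those options (0.051). With 2 lines to a class, each difference compares these lines only.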

How the results depend on the processing

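In the 16 fits without 1 library, the falls among the 38 genes numbered 23 to 27 for H460 (27 with every library), 31 to 34 for H1703 (34), 10 to 22 for HCC827 (19) and 4 to 10 for H441 (10), and the rises in H1703 0 to 2 (2). The 2 rises in H1703 became 0 with libraries centred on their medians and 1 each under quantile normalisation, without the trend and robust options and in a fit of the line alone. In HCC827 quantile normalisation and voom each called 1 rise against 0. The falls in HCC827 became 4 without the trend and robust options and 10 in a fit of the line alone, and those in H441 became 1 and 0 in those fits. The cause was not tested. Of the 84 changes of genes given by library, the side of the threshold was kept by 81 under voom, 83 without a filter, 82 under the stricter filter, 76 when centred, 74 under quantile normalisation, 68 with each line alone and 64 without the trend and robust options, and none turned its direction past the threshold.

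The replicate block within each line gave 28 falls for H460, 34 for H1703, 22 for HCC827 and 10 for H441. Same-numbered libraries deviated together at correlations of 0.014 to 0.032 only, so they share a number and nothing more is known to pair them.

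Centring moved the median of all genes in H460 to -0.15, against 0.05 as deposited, and in H1703 to -0.16, against 0.08. The share of rises among called genes became 32.6% against 52.7% in H460 and 31.1% against 50.4% in H1703. The median of the 38 genes was then -0.68 in H460 and -0.92 in H1703. Genes with few reads, SRSF12 and HNRNPA1L2 among them, are limited by depth.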
